A study of Mus musculus with 14 samples.

Results

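The antiviral effectors of the type I interferon response, 40 genes, were followed gene by gene in bulk mouse tumours treated with an inhibitor of ACSS2 (ACSS2i) or with vehicle. ACSS2 is the cytosolic and nuclear enzyme that makes acetyl-CoA from acetate. The members were taken from a list of gene names. All 40 were found among the 51789 genes of the deposited table, and all 40 were among the 17294 genes kept after a filter on low counts. The tumours grew in hosts whose strain is written as NGS mouse or as C57BI/6 mouse, which gave 4 groups: NGS with vehicle (3 libraries), NGS with ACSS2i (3), C57BI/6 with vehicle (4) and C57BI/6 with ACSS2i (4). What the label NGS stands for is not explained by the labels, so no immune status was assumed for it. Neither the tumour line nor the age of the mice is stated in the labels, and the inhibitor's name, dose and duration are also not stated there. The design line of the series mentions Bmal1 status, but no label assigns one to a library. Nothing states that the replicates were separate animals, so p-values measure the spread between these libraries, part of which may be technical.

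Type I interferons bind the receptor chains IFNAR1 and IFNAR2 and, through JAK kinases, activate a transcription factor complex that holds STAT2 and IRF9. This complex binds the interferon-stimulated response element (ISRE) in front of its target genes, many of which block viruses by binding foreign RNA, halting translation, trapping virions at membranes or depleting nucleotides. In tumours the same genes can be expressed by cancer cells, stroma and infiltrating leukocytes, and bulk RNA does not separate them. A lower level in bulk RNA can therefore come from fewer cells of a type or from less RNA per cell, and these cannot be told apart here.

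Libraries came from 3′ end sequencing of polyadenylated RNA (QuantSeq), so counts were not divided by gene length, and levels are given as CPM, counts scaled to a common library size with TMM factors. Depth ran from 2.85 M to 4.7 M counts per library in NGS and from 17.6 M to 20.3 M in C57BI/6, so host and depth cannot be told apart by design. All 7 epithelial markers had counts in each group, with summed levels of 224 to 712 CPM over the 14 libraries. However, Epcam was under 1 CPM in every C57BI/6 library and most of the signal there was Krt8 (305 to 395 CPM). Under vehicle, 4 of the 7 were lower in C57BI/6 than in NGS and 1 was higher (edgeR, adjusted p under 0.05). Their median log2 fold change was -3.16, and 14% of all genes were lower and 18.8% higher. Skeletal muscle genes summed to 202 to 5229 CPM in NGS vehicle (median 2216) and 7.91 to 458 CPM in NGS ACSS2i (median 15.2), and to 1.15 to 831 CPM (median 6.62) and 2.33 to 2309 CPM (median 117) in C57BI/6 vehicle and ACSS2i. The part of muscle RNA in the NGS results was not tested. T cell and natural killer markers were scarce in NGS: their sums were at most 8.57 and 5.98 CPM there, and Cd3e and Ncr1 had no count in either NGS group. Replicates spread well beyond counting error, with a chi-square over genes of 6.62 to 25.4 per degree of freedom.

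Promoter windows from RefSeq (GRCm38.p6, the build of mm10; 250 bases before to 50 after a gene's start) were matched by symbol for 31 of the 40 members. Of the 38 windows, 28 had a start lying within a GENCODE transcript of the same gene. The ISRE core was searched on either strand as GAAA, any 2 bases and GAAA, which reads TTTC, any 2 bases and TTTC on the opposite strand. It was present in 13 of the 31 members (41.9%), against 3.99% of the 27025 genes with a window. The stretches below are shown because they place the response element in front of members described in the results, with capitals marking every ISRE core; where cores overlap, the capitals run on.
Ifit1 (chr19:34640765-34640833, plus strand): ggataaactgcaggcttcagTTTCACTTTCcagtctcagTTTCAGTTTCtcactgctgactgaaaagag
Ifit3 (chr19:34583353-34583436, plus strand): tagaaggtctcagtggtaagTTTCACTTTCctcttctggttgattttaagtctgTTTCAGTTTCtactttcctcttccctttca
Ifit1bl1 (chr19:34602043-34602092, minus strand): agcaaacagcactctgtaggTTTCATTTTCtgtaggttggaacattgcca
Oas1a (chr5:120907526-120907565, minus strand): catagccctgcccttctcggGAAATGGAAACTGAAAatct
Oas3 (chr5:120777705-120777754, minus strand): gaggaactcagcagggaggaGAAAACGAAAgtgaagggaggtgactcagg
Rsad2 (chr12:26456543-26456592, minus strand): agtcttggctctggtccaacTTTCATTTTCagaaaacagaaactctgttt
Bst2 (chr8:71537567-71537622, minus strand): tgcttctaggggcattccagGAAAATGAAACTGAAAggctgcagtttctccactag

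The Ifit1 stretch also lies in front of Ifit1bl2, which is transcribed in the opposite direction: the windows of these neighbours share 245 bases (chr19:34640694-34640938). The Ifit3 stretch is identical in Ifit3b (chr19:34607749-34607832, plus strand). Ifit1, Ifit3 and Ifit3b each held 2 cores, while Oas1a and Bst2 held 2 overlapping cores. Eif2ak2, Ifitm2, Ifitm3 and Trim21 also held the core, before the start in Ifitm2 and only after it in Eif2ak2, Ifitm3 and Trim21. The GAS core, TTCNNNGAA, the gamma-activated site, which reads the same on either strand, was present in 7 of the 31 members (22.6%) against 9.55% of all genes with a window; in Bst2 it overlaps an ISRE core. Oas2, Mx1, Mx2, Rtp4, Ifi27, Ifi27l2a, Parp9, Parp10 and Parp14 had no window. A match is a description of letters and not a measured binding site.

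In C57BI/6 tumours, ACSS2i was compared with vehicle to ask which effectors the inhibitor changed in that host. In all, 7 members rose: Ifit1bl1, Oas3, Oasl1, Mx1, Ifi44, Epsti1 and Sp100, by 1.99-fold to 5.61-fold. None fell. Of all genes tested, 0.26% were higher and 0.052% lower (0.312% in all) at the same threshold, an adjusted p under 0.05 in the edgeR quasi-likelihood test. The log2 fold change was positive in 38 of 40 members and in 47.3% of genes, with a median of 0.57 against -0.01 over all genes, and the exceptions, Ifitm2 (-0.12) and Ifi27 (-0.19), had adjusted p of 0.908 and 0.845. In 22 of 40 members every treated library was above every vehicle library, against 5.05% of all genes, and in none was every one below (4.28% of genes). The 7 calls fell to 1 without C57BI/6 ACSS2i replicate 2 or vehicle replicate 2. They fell to 3 without ACSS2i replicate 3 or vehicle replicate 3 or 4, and to 4 without ACSS2i replicate 4. An unadjusted p under 0.05 was reached by 29 members, against 7.96% of all genes. DESeq2 called 19 members and 330 genes, and limma voom 21 members and 429 genes.

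In NGS tumours the same treatment gave 25 higher members and 1 lower member, the exonuclease gene Isg20. The background was 1.32% of genes higher and 1.38% lower, 2.69% in all. The 25 included all 7 that rose in C57BI/6. Their folds ran from 1.71 (Trim25) to 5.53 (Ifit1bl1), with Cmpk2 at 5.21, Oas2 at 4.5 and Mx1 at 4.21. The log2 fold change was positive in 37 members and in 45.9% of genes, and its median over the 40 was 1.22, against -0.01 over all genes. In 32 members every treated library exceeded every vehicle library, against 8.48% of genes, and in 1, Isg20, every one was lower (10.3% of genes). The calls fell to 12 without NGS ACSS2i replicate 2 and to 15 without NGS vehicle replicate 1, and a fit of the 6 NGS libraries alone called 2, Oasl2 and Ifi44. At an unadjusted p under 0.05 were 37 members, against 22.1% of all genes. DESeq2 called 33 members and 1539 genes, and limma voom 6 members and 27 genes. More members were thus called in C57BI/6 than in NGS by limma voom (21 against 6). The same held with only the groups compared (15 against 2).

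**Figure D1:**
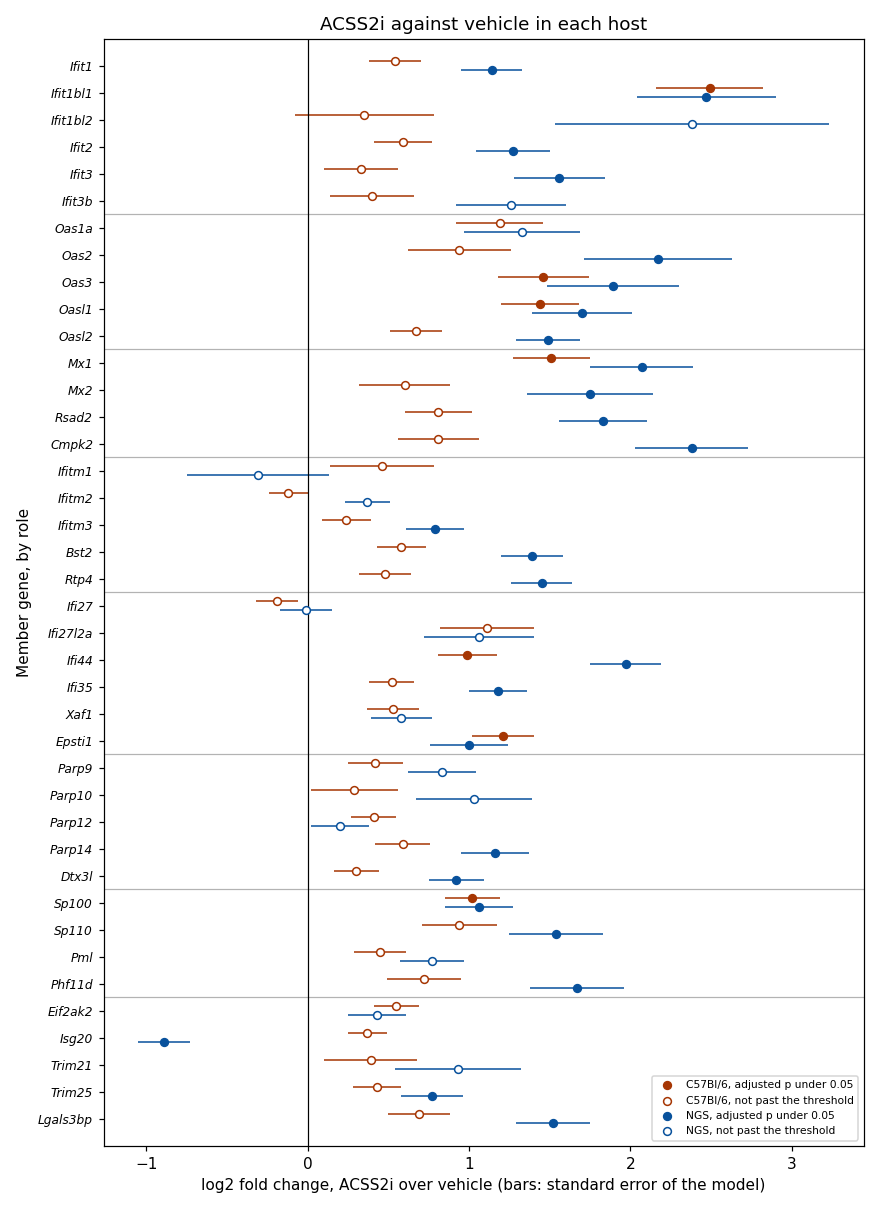
Each row is a member, grouped by role, and points give the log2 fold change of ACSS2i over vehicle in C57BI/6 (red) and NGS (blue) with bars of the standard error; filled points passed the edgeR test at an adjusted p under 0.05. Points lie right of 0 for 38 members in C57BI/6 and 37 in NGS, and Isg20 is the filled point to the left.

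The difference between these effects, C57BI/6 minus NGS, was tested as an interaction. None of the 40 members passed in edgeR, where 0.0173% of all genes did. An unadjusted p under 0.05 was reached by 18 members, against 13.8% of all genes. DESeq2 called 5 members and 272 genes, and limma voom called 0 of either. The NGS log2 fold change was the larger one in 33 members and the C57BI/6 one in 7; over all genes the difference was positive in 52%. The median difference was -0.57, against 0.02 over all genes. The smallest adjusted p belonged to Isg20 (0.0764), then Rtp4 (0.197) and Cmpk2 (0.205). Leaving out NGS ACSS2i replicate 1 gave 3 calls (Isg20, Rtp4 and Ifitm3), and leaving out NGS vehicle replicate 1 gave 1, Isg20. With Ifit3, Cmpk2, Rtp4 and Ifi44, Isg20 made up the 5 that DESeq2 called.

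Between the hosts under vehicle, 19 members were higher in C57BI/6 and none was lower. Here the background was high, with 18.8% of all genes higher and 14% lower, since 5666 genes differed between the hosts (32.8%). Rsad2 (2.9-fold), Cmpk2 (2.85-fold) and Phf11d (2.72-fold) differed most among the called members with more than 3 counts in each group. Ifit1bl2 was also called, but it had 0, 1 and 1 counts in NGS vehicle, so its fitted difference is not read as a size. Of the 19, 13 also rose with ACSS2i in NGS, but both comparisons use the same NGS vehicle libraries, so a low value in those libraries enters each. Of the 40 members 1 was below the threshold of an unadjusted p of 0.05 in the other direction (Ifi27l2a), and neither DESeq2 nor limma voom called a member lower. With the C57BI/6 counts thinned to 3.94 M per library, 16 members were called. All C57BI/6 libraries were above all NGS libraries in 18 members (23.5% of genes) and below them in 1, Sp100 (17.1% of genes).

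**Figure D2:**
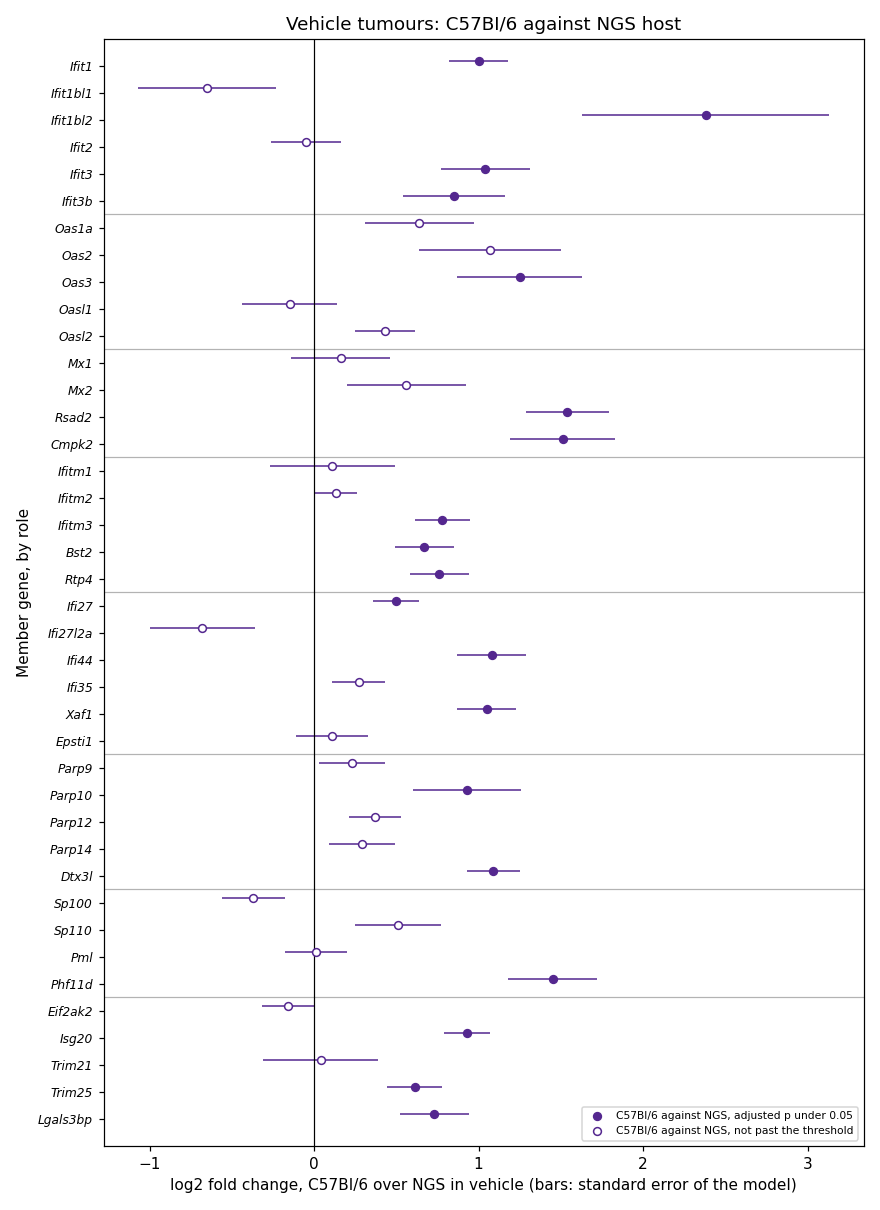
Each row is a member and the point is its log2 fold change in vehicle tumours, C57BI/6 over NGS, with a bar of the standard error; filled points passed the edgeR test at an adjusted p under 0.05. The 19 filled points all lie right of 0, and the point farthest right, Ifit1bl2 at 2.38, rests on 0, 1 and 1 counts in NGS vehicle; 6 open points lie left of it; 51% of all genes were right of 0.

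The level over the 40 members varied between treated libraries of the same group. Within NGS ACSS2i, the median log2 level over the vehicle mean was 0.76, 1.51 and 1.29 for replicates 1, 2 and 3. Within C57BI/6 ACSS2i the same medians were 0.34, 0.70, 0.73 and 0.59.

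**Figure D3:**
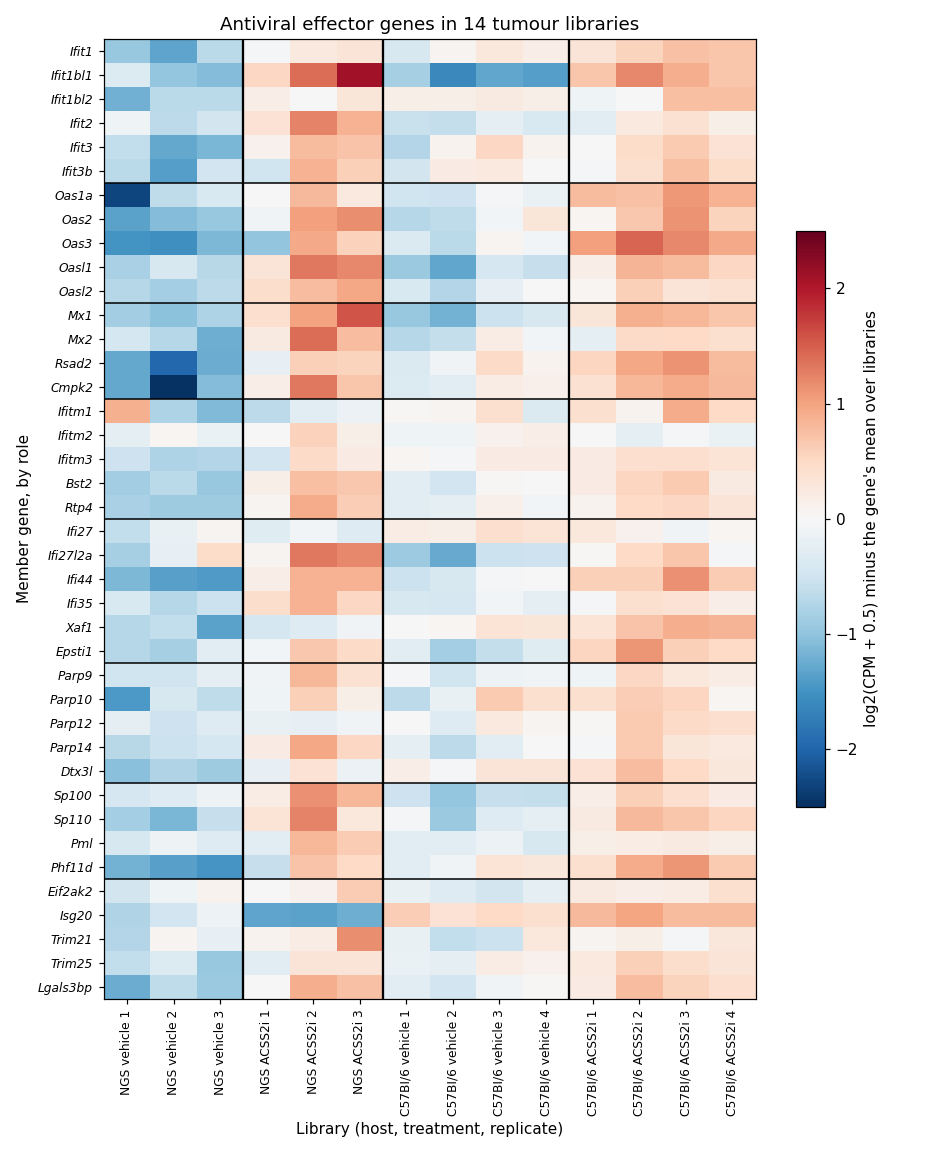
Rows are the 40 members by role, columns are the 14 libraries, and colour gives log2(CPM + 0.5) minus the mean of the gene over libraries. The 3 NGS vehicle columns are the bluest for most members, NGS ACSS2i replicate 1 is paler than replicates 2 and 3, and the row of Isg20 is dark blue in NGS ACSS2i.

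The IFIT proteins bind viral RNA that lacks the host cap and block its translation. Their 6 genes lie together on chromosome 19 between 34550694 and 34650009 (mm10), all protein-coding. Ifit1bl1 (chromosome 19, 34592891 to 34601956), a mouse paralog of Ifit1, had the largest rise of the 40 in C57BI/6. Its levels there were 2.01, 0.951, 1.31 and 1.21 CPM with vehicle and 6.73, 9.68, 7.85 and 6.74 CPM with ACSS2i. In NGS they were 3.04, 1.79 and 1.6 CPM with vehicle and 5.88, 11.2 and 18.6 CPM with ACSS2i. No treated library overlapped a vehicle library in either host, though NGS replicate 3 was far above replicate 1. The log2 fold changes were 2.49 ± 0.33 (SE, adjusted p = 0.00344) in C57BI/6 and 2.47 ± 0.43 (adjusted p = 0.0119) in NGS, and their difference was 0.02 (95% interval -0.90 to 0.95). The C57BI/6 call held with each library left out in turn, with an adjusted p of at most 0.0233.

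Ifit1 and Ifit3 already differed between the hosts under vehicle. Ifit1 measured 45.3, 34.8 and 54.7 CPM in NGS vehicle and 85.3, 103 and 109 CPM in NGS ACSS2i. C57BI/6 levels were 65.9, 91.3, 105 and 97.8 CPM with vehicle and 109, 128, 145 and 142 CPM with ACSS2i. Every C57BI/6 vehicle library was thus above every NGS vehicle library and close to the treated NGS libraries. Ifit1 rose in NGS (log2 fold change 1.14 ± 0.19, adjusted p = 0.0108), was higher in C57BI/6 vehicle (1.00 ± 0.18, adjusted p = 0.000638) and was at 0.54 ± 0.16 in C57BI/6 with treatment (adjusted p = 0.225). Ifit3 was at 71.6, 44.9 and 49.7 CPM in NGS vehicle and 119, 191 and 180 CPM in NGS ACSS2i. Its C57BI/6 levels were 66.5, 117, 158 and 117 CPM with vehicle and 109, 151, 174 and 142 CPM with ACSS2i. The NGS groups were apart, whereas the C57BI/6 groups overlapped, with vehicle replicate 1 low. Ifit3 rose in NGS (1.56 ± 0.28, adjusted p = 0.0149) and stood at 0.33 ± 0.23 in C57BI/6 (adjusted p = 0.853). The difference of -1.23 (95% interval -1.94 to -0.51) had an adjusted p of 0.218. Without NGS ACSS2i replicate 2 the NGS call of Ifit3 was lost, with an adjusted p at the threshold (0.05).

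Of the other IFIT genes, Ifit2, which promotes cell death as well as blocking translation, rose in NGS (2.41-fold, adjusted p = 0.0149) and was 1.5-fold in C57BI/6 (adjusted p = 0.289). The NGS call of Ifit2 was lost without NGS ACSS2i replicate 2 (adjusted p = 0.0503). Ifit3b, the near copy of Ifit3, was at 2.39-fold in NGS (adjusted p = 0.0591) and was higher in C57BI/6 vehicle than in NGS vehicle (1.8-fold, adjusted p = 0.0479), a call lost in 8 of the 14 fits without 1 library (adjusted p up to 0.196). Ifit1bl2 rested on few reads, 0, 1 and 1 counts in NGS vehicle and 3, 2 and 4 in NGS ACSS2i. Its host difference in vehicle (log2 2.38 ± 0.75, adjusted p = 0.0247) set those against 14, 14, 15 and 13 counts in the deeper C57BI/6 libraries, and the call was lost in DESeq2, in limma voom and without NGS vehicle replicate 1 (adjusted p = 0.0975). Of the 50-base words in the last 500 bases of the Ifit3 transcript, 14.9% also occur in Ifit3b, and for Ifit1bl1 9.09% occur in another gene, Ifit1bl2, so the split of reads between these copies is uncertain.

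The OAS family senses foreign double-stranded RNA and makes the oligoadenylates that switch on RNase L, while OASL1 lacks that activity. Oasl1 (chromosome 5, 114923240 to 114937915), known as a brake on IRF7 translation, was at 6.27, 8.53 and 6.84 CPM in NGS vehicle and 14.4, 29.3 and 26.7 CPM in NGS ACSS2i. In C57BI/6 it went from 5.75, 4.36, 8.35 and 7.48 CPM to 12.8, 20.9, 20 and 16.5 CPM. Treated and vehicle libraries were apart in both hosts, and vehicle levels overlapped between hosts. The log2 fold changes were 1.44 ± 0.24 (adjusted p = 0.0196) in C57BI/6 and 1.70 ± 0.31 (adjusted p = 0.0149) in NGS. The C57BI/6 call of Oasl1 was lost without ACSS2i replicate 2, 3 or 4 or vehicle replicate 2 or 4 (adjusted p up to 0.0762). The NGS call of Oasl1 was lost without NGS ACSS2i replicate 2 or NGS vehicle replicate 1 (adjusted p up to 0.0514).

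Oas3, the synthetase of the longest oligoadenylates, was at 3.04, 2.92 and 4.1 CPM in NGS vehicle and 4.55, 18.8 and 14.3 CPM in NGS ACSS2i, where replicate 1 barely left the vehicle range. Levels in C57BI/6 were 7.26, 5.71, 9.89 and 9.05 CPM with vehicle and 19.8, 27, 22.5 and 18.8 CPM with ACSS2i, groups that were well apart. Oas3 rose in both hosts (log2 1.46 ± 0.28, adjusted p = 0.0429, in C57BI/6 and 1.89 ± 0.41, adjusted p = 0.0291, in NGS), and was higher in C57BI/6 vehicle (1.25 ± 0.38, adjusted p = 0.0203). The C57BI/6 call of Oas3 was lost in 10 of the 14 fits that left out 1 library, with adjusted p up to 0.183. The NGS call of Oas3 was lost in 5 of these fits (adjusted p up to 0.0982) and its host call in 2 (up to 0.0761). Oasl2 was close to constant in NGS vehicle: 30.8, 28 and 32.1 CPM with vehicle against 68.7, 86.7 and 100 CPM with ACSS2i. The C57BI/6 libraries were at 38.6, 30.2, 43.7 and 50.5 CPM with vehicle and 52.5, 76.5, 63.6 and 66.1 CPM with ACSS2i, apart by a narrow margin. Oasl2 rose 2.81-fold in NGS (adjusted p = 0.00395), a call that held in all 24 alternatives, and was 1.59-fold in C57BI/6 (adjusted p = 0.102). Oas2 rose 4.5-fold in NGS (adjusted p = 0.027), a call lost in 5 of the 14 fits without 1 library (up to 0.082). Oas1a was 2.28-fold in C57BI/6 (adjusted p = 0.0845) and 2.51-fold in NGS (adjusted p = 0.0592), and 56.1% of the words at its 3′ end are shared, mainly with Oas1g.

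Mx1 and Mx2 encode dynamin-like GTPases that trap viral nucleocapsids, in the nucleus for MX1. Rsad2 encodes viperin, which makes a chain-terminating nucleotide, and its neighbour Cmpk2 encodes the kinase that supplies the substrate. Mx1 (chromosome 16, 97447035 to 97462907) was at 4.86, 4.26 and 5.24 CPM in NGS vehicle and 12.6, 19.1 and 28.5 CPM in NGS ACSS2i. C57BI/6 levels were 4.58, 3.8, 6.23 and 6.88 CPM with vehicle and 11.6, 17.6, 16.8 and 15.2 CPM with ACSS2i. The vehicle levels of the hosts overlapped and each treated group was wholly above its own vehicle group. Mx1 rose 2.84-fold in C57BI/6 (adjusted p = 0.0145) and 4.21-fold in NGS (adjusted p = 0.00733), a log2 difference of -0.56 (95% interval -1.34 to 0.21). The C57BI/6 call of Mx1 was lost without ACSS2i replicate 2 or vehicle replicate 2 (adjusted p up to 0.0706). Mx2, annotated as a polymorphic pseudogene, rose in NGS (3.35-fold, adjusted p = 0.0304) and was 1.52-fold in C57BI/6 (adjusted p = 0.628). Its NGS call was lost in 5 of the 14 fits without 1 library (adjusted p up to 0.0982).

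Rsad2 (chromosome 12, 26442746 to 26456452) measured 41.7, 25.6 and 42.9 CPM in NGS vehicle and 88.3, 155 and 150 CPM in NGS ACSS2i. Levels in C57BI/6 were 79.4, 95.8, 143 and 108 CPM with vehicle and 148, 201, 222 and 176 CPM with ACSS2i. The order of the group means was NGS vehicle, C57BI/6 vehicle, NGS ACSS2i and C57BI/6 ACSS2i, and the middle pair overlapped. Rsad2 rose in NGS (log2 1.83 ± 0.27, adjusted p = 0.00552), was at 0.81 ± 0.21 in C57BI/6 (adjusted p = 0.158) and was higher in C57BI/6 vehicle (1.54 ± 0.25, adjusted p = 0.000283). Cmpk2, which lies on the opposite strand beside it, was at 7.28, 2.92 and 8.43 CPM in NGS vehicle and 20.9, 47.1 and 30.2 CPM in NGS ACSS2i. Its C57BI/6 levels were 14.5, 15.4, 21.1 and 20.2 CPM with vehicle and 24.1, 33, 35.4 and 32.6 CPM with ACSS2i. Both hosts' groups were apart, and NGS vehicle was below every other library. Cmpk2 rose 5.21-fold in NGS (adjusted p = 0.00552), was 1.76-fold in C57BI/6 (adjusted p = 0.263) and was 2.85-fold higher in C57BI/6 vehicle (adjusted p = 0.00233); its interaction was -1.57 (95% interval -2.40 to -0.74, adjusted p = 0.205).

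**Figure D4:**
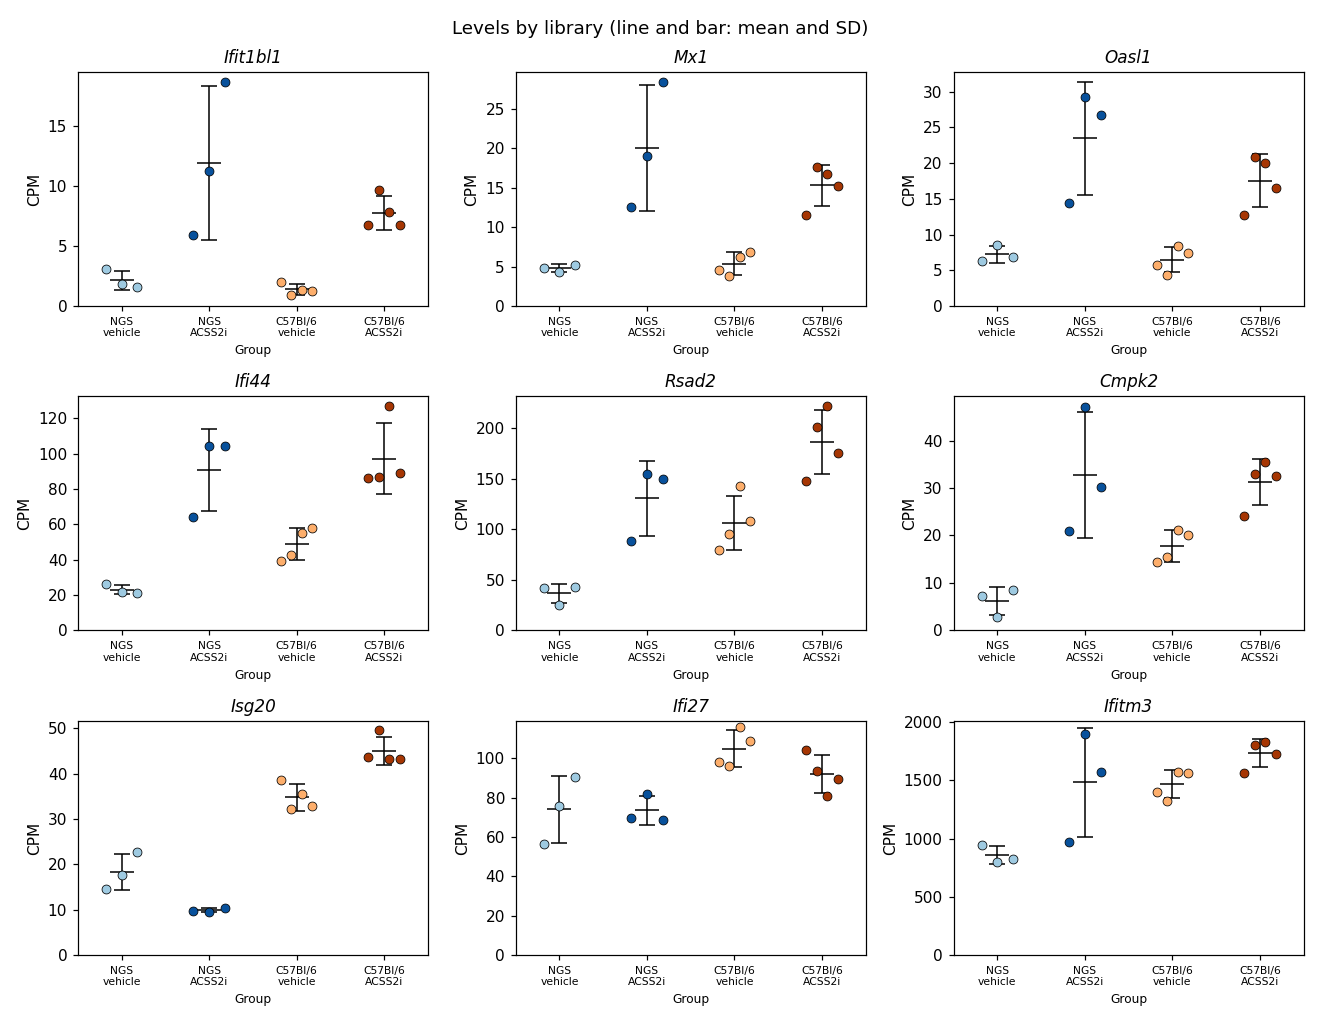
Each panel is a member, each point a library, and the line and bar give the mean and SD of CPM in NGS vehicle, NGS ACSS2i, C57BI/6 vehicle and C57BI/6 ACSS2i; the axes start at 0. Ifit1bl1, Mx1 and Oasl1 start from like vehicle levels in both hosts, Rsad2, Cmpk2 and Ifi44 start lower in NGS, and Isg20 is at 9.56 to 10.4 CPM in NGS ACSS2i and 43.2 to 49.6 CPM in C57BI/6 ACSS2i.

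Among the membrane factors, 3 of 5 rose in NGS (1.32% of all genes) and none passed in C57BI/6 (0.26% of all genes rose). In C57BI/6, 2 were at an unadjusted p under 0.05 (7.96% of all genes), and DESeq2 and limma voom each called 1. Bst2, or tetherin, holds budding virions at the cell surface, and RTP4 restrains flavivirus replication. Bst2 was at 29.9, 34.3 and 28.3 CPM in NGS vehicle and 61.2, 92.6 and 88.2 CPM in NGS ACSS2i. The C57BI/6 libraries were at 45.2, 39.6, 56.5 and 55.7 CPM with vehicle and 63.5, 80, 87.3 and 64.3 CPM with ACSS2i. All treated libraries were above all vehicle libraries of their host, and C57BI/6 vehicle was above NGS vehicle. Bst2 rose 2.61-fold in NGS (adjusted p = 0.00455) and was 1.5-fold in C57BI/6 (adjusted p = 0.158). Rtp4 was nearly constant in NGS vehicle, at 33.6, 31.9 and 31.7 CPM, against 62.3, 113 and 91.4 CPM with ACSS2i. Its C57BI/6 levels were 49, 49.8, 64.9 and 56.1 CPM with vehicle and 62.6, 84.4, 85 and 74.4 CPM with ACSS2i, so treated replicate 1 lay inside the vehicle range. Rtp4 rose 2.74-fold in NGS (adjusted p = 0.00395) and was 1.39-fold in C57BI/6 (adjusted p = 0.314), with an interaction of -0.98 (95% interval -1.46 to -0.49, adjusted p = 0.197).

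The IFITM proteins block viral fusion in endosomes and at the plasma membrane. Ifitm3 was at 947, 800 and 823 CPM in NGS vehicle and 973, 1899 and 1576 CPM in NGS ACSS2i, where replicate 1 was close to vehicle. C57BI/6 levels were 1403, 1327, 1569 and 1564 CPM with vehicle and 1563, 1808, 1831 and 1727 CPM with ACSS2i, which overlapped. Ifitm3 rose in NGS (log2 0.79 ± 0.18, adjusted p = 0.0304), was higher in C57BI/6 vehicle (0.78 ± 0.17, adjusted p = 0.00238) and was at 0.24 ± 0.15 with treatment in C57BI/6 (adjusted p = 0.806). Its NGS call was lost in 5 of the 14 fits without 1 library, among them NGS ACSS2i replicate 2 (adjusted p up to 0.0936). Ifitm1 and Ifitm2 passed in no comparison. Ifitm2 was at 1.29-fold in NGS (adjusted p = 0.145), with 41.9% of the words at its 3′ end shared with other genes, and Ifitm1 had 1 vehicle library at 25.9 CPM against 7.85 and 6.15 CPM in the other NGS vehicle libraries.

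Of the small interferon-induced proteins, Ifi44 and Epsti1 rose in both hosts and Ifi35 in NGS. Ifi44 (chromosome 3, 151730922 to 151749960), a cytoplasmic protein used widely as an interferon marker, was at 26.1, 22 and 21.2 CPM in NGS vehicle and 64.2, 104 and 104 CPM in NGS ACSS2i. Levels in C57BI/6 were 39.3, 42.9, 54.9 and 57.8 CPM with vehicle and 86.1, 86.5, 127 and 88.8 CPM with ACSS2i. All groups were apart within each host, and the vehicle groups were apart between hosts. The log2 fold changes were 0.99 ± 0.18 (adjusted p = 0.0297) in C57BI/6 and 1.97 ± 0.22 (adjusted p = 0.00127) in NGS, the smallest adjusted p of any member there, and their difference of -0.98 (95% interval -1.53 to -0.43) had an adjusted p of 0.215. The NGS call of Ifi44 held in all 24 alternatives, and its C57BI/6 call was lost in 9 of them, 7 of which left out 1 library (adjusted p up to 0.142).

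Epsti1, an interferon-induced gene of epithelium and macrophages, had C57BI/6 levels of 26.9, 18.1, 21.6 and 26.7 CPM with vehicle and 48, 71.2, 50.2 and 46.5 CPM with ACSS2i. In NGS it was at 19.8, 18.2 and 27.1 CPM with vehicle and 31.3, 52.7 and 46 CPM with ACSS2i. Vehicle levels overlapped between hosts, and treated libraries were above vehicle in each. Epsti1 rose 2.31-fold in C57BI/6 (adjusted p = 0.0145) and 1.99-fold in NGS (adjusted p = 0.0409), a log2 difference of 0.21 (95% interval -0.38 to 0.81). The C57BI/6 call of Epsti1 was lost without ACSS2i replicate 2 or vehicle replicate 2 or 3 (adjusted p up to 0.0796), and its NGS call in 9 of the 14 fits without 1 library (up to 0.132). Xaf1, a binder of the apoptosis inhibitor XIAP, passed between the hosts but not with treatment. It was at 37, 39.5 and 23.9 CPM in NGS vehicle, 44.9, 48.4 and 57.1 CPM in NGS ACSS2i, 61.8, 63.2, 77.9 and 75.4 CPM in C57BI/6 vehicle and 77, 101, 115 and 110 CPM in C57BI/6 ACSS2i. Every C57BI/6 library was above every NGS library. Xaf1 was 2.08-fold higher in C57BI/6 vehicle (adjusted p = 0.00043), and treatment gave 1.45-fold there (adjusted p = 0.225) and 1.5-fold in NGS (adjusted p = 0.103).

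The related mitochondrial genes Ifi27 and Ifi27l2a are neighbours on chromosome 12. Ifi27l2a varied widely in NGS, at 70.2, 109 and 173 CPM with vehicle and 132, 313 and 289 CPM with ACSS2i. The C57BI/6 libraries were at 66.8, 52.1, 86.4 and 87.3 CPM with vehicle and 127, 176, 203 and 123 CPM with ACSS2i. The NGS groups overlapped and the C57BI/6 groups did not. Its folds were 2.15 in C57BI/6 (adjusted p = 0.16) and 2.09 in NGS (adjusted p = 0.0948). Ifi27 was the only member with a negative log2 fold change in both hosts, -0.19 ± 0.13 in C57BI/6 (adjusted p = 0.845) and -0.01 ± 0.16 in NGS (adjusted p = 0.998), and it was higher in C57BI/6 vehicle (1.41-fold, adjusted p = 0.0156).

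The PARP genes listed encode ADP-ribosyltransferases of the antiviral response, and DTX3L is the ubiquitin ligase partner of PARP9. Parp14, which modulates interferon and STAT signalling, was at 49.2, 54.7 and 58.8 CPM in NGS vehicle and 92.5, 156 and 115 CPM in NGS ACSS2i. C57BI/6 levels were 67.5, 50.7, 66.8 and 79.5 CPM with vehicle and 77.7, 127, 98.6 and 95 CPM with ACSS2i. The NGS groups were well apart, while in C57BI/6 treated replicate 1 was below vehicle replicate 4. Parp14 rose 2.23-fold in NGS (adjusted p = 0.0149) and was 1.5-fold in C57BI/6 (adjusted p = 0.242). The NGS call of Parp14 was lost in 2 of the 14 fits without 1 library (adjusted p up to 0.0535). Dtx3l was at 48.8, 59.9 and 54.7 CPM in NGS vehicle and 87.2, 130 and 90.9 CPM in NGS ACSS2i. Levels in C57BI/6 were 114, 98.1, 126 and 127 CPM with vehicle and 131, 172, 144 and 123 CPM with ACSS2i. The untreated C57BI/6 libraries thus reached the levels of treated NGS libraries. Dtx3l rose 1.89-fold in NGS (adjusted p = 0.0154), was 1.23-fold in C57BI/6 (adjusted p = 0.638), and was 2.13-fold higher in C57BI/6 vehicle (adjusted p = 0.000117, the smallest of the members there). Its NGS call was lost in 2 of the 14 fits without 1 library (adjusted p up to 0.0545). Parp9, whose gene overlaps Dtx3l on the opposite strand, was 1.77-fold in NGS (adjusted p = 0.0529). The overlap lies at the start of both genes, whereas the libraries were made by 3′ end sequencing. The strand setting of the counting was not given, so any reads in the overlap cannot be assigned. Parp10 was higher in C57BI/6 vehicle (1.91-fold, adjusted p = 0.0394, lost in 5 of the 14 fits without 1 library), and Parp12 passed in no comparison.

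Sp100, Sp110 and Pml encode parts of nuclear bodies, which restrain viral genomes, and Phf11d is a PHD finger gene. Sp100 (chromosome 1, 85649988 to 85709998) was at 30.8, 33 and 37.6 CPM in NGS vehicle and 47.1, 91.3 and 73.4 CPM in NGS ACSS2i. The C57BI/6 libraries were at 28.7, 20.9, 27.6 and 27 CPM with vehicle and 46.1, 62.8, 55.7 and 47.4 CPM with ACSS2i. Groups were apart in each host, and the C57BI/6 vehicle libraries were all below the NGS vehicle libraries. No other member was fully apart in that direction. Sp100 rose 2.03-fold in C57BI/6 (adjusted p = 0.0212) and 2.09-fold in NGS (adjusted p = 0.0182), an interaction of -0.04 (95% interval -0.56 to 0.49), and its host difference of -0.37 in vehicle had an adjusted p of 0.15. The call of Sp100 was lost in 5 of the 14 fits without 1 library in C57BI/6 (adjusted p up to 0.0996) and in 4 in NGS (up to 0.0671). Phf11d was at 21.2, 18.8 and 17.3 CPM in NGS vehicle and 32.9, 80.7 and 69.7 CPM in NGS ACSS2i. C57BI/6 levels were 40.1, 46.3, 62.6 and 59.9 CPM with vehicle and 65.3, 94.3, 106 and 77.9 CPM with ACSS2i. Each treated group was above its vehicle group, and NGS vehicle was below every other library. Phf11d rose 3.18-fold in NGS (adjusted p = 0.0122), was 1.64-fold in C57BI/6 (adjusted p = 0.289) and was 2.72-fold higher in C57BI/6 vehicle (adjusted p = 0.000916). Sp110 rose in NGS (2.91-fold, adjusted p = 0.0152), a call lost in 3 of the 14 fits without 1 library (up to 0.0558). Pml was 1.7-fold there (adjusted p = 0.0545).

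Isg20 (chromosome 7, 78913424 to 78920396), a 3′ exonuclease that degrades viral RNA, was the 1 member that fell. It was at 14.6, 17.7 and 22.6 CPM in NGS vehicle and 9.63, 9.56 and 10.4 CPM in NGS ACSS2i. Levels in C57BI/6 were 38.5, 32.1, 35.5 and 32.8 CPM with vehicle and 43.7, 49.6, 43.3 and 43.2 CPM with ACSS2i. Treated libraries were all below vehicle in NGS and all above vehicle in C57BI/6, and the C57BI/6 libraries were all above the NGS libraries. Isg20 fell in NGS (log2 -0.89 ± 0.16, adjusted p = 0.0152) and was at 0.37 ± 0.12 in C57BI/6 (adjusted p = 0.289). The difference between these effects was 1.26 (95% interval 0.86 to 1.65, adjusted p = 0.0764), and it passed in DESeq2 (adjusted p = 0.000234). In vehicle it was 1.9-fold higher in C57BI/6 (adjusted p = 0.000127), a call that held in all 24 alternatives. The NGS treatment call was lost in 4 of the 24 alternatives. These were the fit without NGS ACSS2i replicate 2 (adjusted p = 0.0591) and the fit of NGS libraries alone. The others were limma voom and the fit without muscle-rich C57BI/6 libraries. None of the promoter windows of Isg20 held the ISRE core.

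Lgals3bp, a secreted glycoprotein, was at 59.5, 91.1 and 74.5 CPM in NGS vehicle and 142, 267 and 237 CPM in NGS ACSS2i. The C57BI/6 libraries were at 118, 102, 134 and 145 CPM with vehicle and 163, 242, 208 and 190 CPM with ACSS2i. All groups were apart within and between the vehicle hosts. Lgals3bp rose 2.87-fold in NGS (adjusted p = 0.00601), was 1.61-fold in C57BI/6 (adjusted p = 0.179) and was 1.66-fold higher in C57BI/6 vehicle (adjusted p = 0.0148). Eif2ak2, the kinase PKR that halts translation on double-stranded RNA, was at 31.8, 28.9, 26.2 and 30.3 CPM in C57BI/6 vehicle and 42.2, 40.5, 41.1 and 47.9 CPM in C57BI/6 ACSS2i. In NGS it was at 26.3, 33.7 and 38.3 CPM with vehicle and 35.8, 38.9 and 56.6 CPM with ACSS2i. The C57BI/6 groups were apart by a wide margin for their spread, yet 1.47-fold did not pass (adjusted p = 0.147), and the NGS groups overlapped (1.34-fold, adjusted p = 0.174). Trim25, the ubiquitin ligase that activates RIG-I, rose in NGS (1.71-fold, adjusted p = 0.0439) and was higher in C57BI/6 vehicle (1.52-fold, adjusted p = 0.0152); the NGS call was lost in 10 of the 14 fits without 1 library. Trim21, the cytosolic antibody receptor, passed in no comparison and was at most 9.67 CPM.

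The calls were also counted by whether a window held the ISRE core, with no test of the difference. In NGS 7 of 13 with the core and 13 of 18 without it rose (1.32% of all genes), with median log2 fold changes of 1.33 and 1.12. In C57BI/6 2 of 13 and 4 of 18 rose (0.26% of all genes), with medians of 0.54 and 0.63. The 13 are not independent: Ifit1 and Ifit1bl2 share a stretch, and those of Ifit3 and Ifit3b are identical. Ifi44, Oasl1, Mx1 and Cmpk2, with large folds, had no core or no window among these sequences.

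Upstream in the pathway, the listed interferon genes were near the limit of detection. None of 12 ligand genes passed the filter. Of the interferon-alpha genes the list held Ifna1, Ifna2, Ifna4, Ifna5 and Ifnab, and any others were not looked at. All 12 had no count in NGS ACSS2i, where 3 counts over the group correspond to 0.27 CPM, and they summed to at most 0.202 CPM in NGS vehicle. In C57BI/6 the sum was 0 to 0.224 CPM with vehicle and 0.334 to 0.735 CPM with ACSS2i, most of it Ifng, the type II interferon, at 0.509, 0.695, 0.223 and 0.595 CPM in the treated libraries. Ifnb1 had 3 counts in each C57BI/6 group. The receptor chain gene Ifnar1 had log2 fold changes of 0.32 ± 0.12 in C57BI/6 (adjusted p = 0.407) and 0.38 ± 0.14 in NGS (adjusted p = 0.136). With treatment, none of the 5 tested receptor genes passed in either host in edgeR, DESeq2 or limma voom. In each host 2 of them were at an unadjusted p under 0.05, against 7.96% of all genes in C57BI/6 and 22.1% in NGS. Ifnar2 was at 0.02 ± 0.10 and 0.29 ± 0.12 (adjusted p of 1 and 0.159). Between the hosts under vehicle, Ifnar1 was lower in C57BI/6 (-0.40 ± 0.13, adjusted p = 0.0287).

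Of 11 signal transducers, 1 rose in C57BI/6 and 3 in NGS (0.26% and 1.32% of all genes). Irf7, the interferon-induced factor that amplifies interferon production, rose in both: it was at 18.8, 15.3 and 24.2 CPM in NGS vehicle, 50, 125 and 94.1 CPM in NGS ACSS2i, 30.6, 22.4, 36.2 and 36.7 CPM in C57BI/6 vehicle and 60.3, 109, 94.4 and 82.2 CPM in C57BI/6 ACSS2i. Treated libraries were above vehicle in each host, with replicate 1 the lowest of each treated group. The log2 fold changes were 1.46 ± 0.25 (adjusted p = 0.0256) and 2.20 ± 0.32 (adjusted p = 0.00552) in C57BI/6 and NGS. Stat2 and Irf9 rose in NGS (0.95 ± 0.17, adjusted p = 0.015, and 0.64 ± 0.16, adjusted p = 0.0437). In C57BI/6 Stat2 was at 0.67 ± 0.14, with an adjusted p of 0.051. Between the hosts under vehicle, 3 of the 11 were higher in C57BI/6 and 2 lower, against 18.8% and 14% of all genes. Stat2, Tyk2 and Irf9 were higher, at log2 1.04, 0.64 and 0.51 (adjusted p of 0.000172, 0.0106 and 0.0139), and Jak1 and Irf2 were lower, at -0.39 and -0.43 (adjusted p of 0.027 and 0.0209).

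The ISG15 system, in which a ubiquitin-like protein is attached to targets, had all 5 genes higher in NGS and Isg15 higher in C57BI/6 (1.32% and 0.26% of all genes). Isg15 rose by 0.93 ± 0.21 (adjusted p = 0.0306) in NGS and by 0.87 ± 0.17 (adjusted p = 0.0468) in C57BI/6. Usp18, which removes ISG15 and dampens IFNAR2, rose in NGS from 5.06, 4.04 and 5.01 CPM to 14.4, 34.9 and 16.6 CPM (log2 2.20 ± 0.34, adjusted p = 0.00746). In C57BI/6 it went from 10.8, 15.2, 19.9 and 18.7 CPM to 26.5, 31, 35.4 and 27 CPM, groups that were apart at 0.89 ± 0.23 (adjusted p = 0.157). Among 7 brakes, Ptpn6 also rose (0.68 ± 0.14, adjusted p = 0.027) and the STAT phosphatase gene Ptpn2 fell (-0.48 ± 0.12, adjusted p = 0.0438) in NGS. Of 12 tested nucleic acid sensors, Dhx58, which encodes LGP2, rose in C57BI/6 from 7.65, 5.2, 9.09 and 7.67 CPM to 10.9, 18.1, 21.9 and 17 CPM (adjusted p = 0.0477). In NGS Ddx58, which encodes RIG-I, rose by 1.08, Ifih1, which encodes MDA5, by 1.17, Zbp1 by 1.35 and Adar by 1.04 on the log2 scale.

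**Figure D5:**
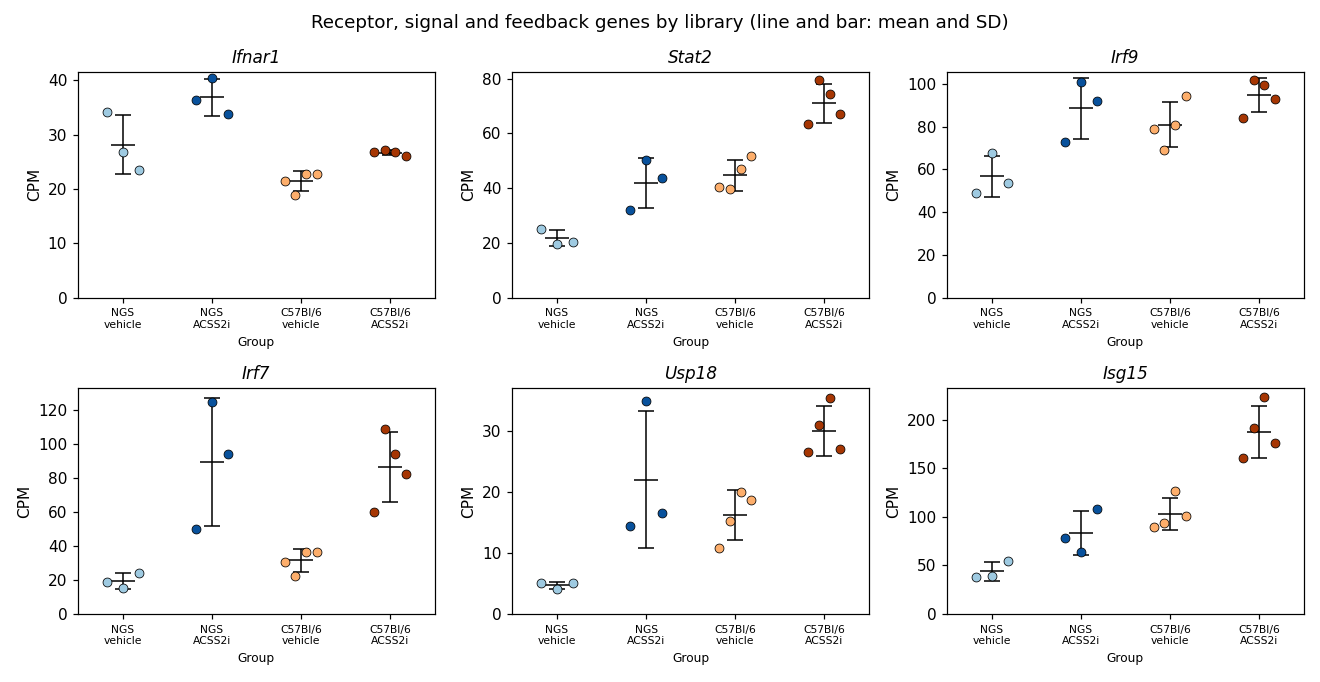
Each panel is a gene of the receptor, signalling or feedback steps, each point a library, and the line and bar give the mean and SD of CPM in the 4 groups; the axes start at 0. Ifnar1 stays between 18.9 and 40.5 CPM, while Irf7 and Usp18 are higher in every treated library than in every vehicle library of the same host.

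Summed pan-leukocyte markers were higher in every treated library than in every vehicle library of its host. The 4 pan-leukocyte genes summed to 384 to 489 CPM in NGS vehicle and 536 to 719 CPM in NGS ACSS2i, and to 428 to 521 CPM and 651 to 834 CPM in C57BI/6. None of the 4 passed in edgeR. At an unadjusted p under 0.05 were 3 in NGS (22.1% of all genes) and 4 in C57BI/6 (7.96% of all genes). DESeq2 called 3 in each host, and limma voom 0 in NGS and 3 in C57BI/6. The 8 macrophage and monocyte markers summed to 936 to 1763 and 1590 to 2354 CPM in NGS, and to 1274 to 1727 and 1629 to 2013 CPM in C57BI/6. Of these, Ly6c2, a gene of inflammatory monocytes that is itself interferon-inducible, rose in both hosts, by 3.20 ± 0.46 (adjusted p = 0.00552) in NGS and 3.17 ± 0.35 (adjusted p = 0.00156) in C57BI/6 on the log2 scale. T cell markers summed to 15.9 to 30.7 CPM in C57BI/6 vehicle and 45.7 to 92.1 CPM in C57BI/6 ACSS2i, but to 3.59 to 5.67 and 3.45 to 8.57 CPM in NGS. Natural killer markers were at 6.15 to 10.1 and 13.4 to 39.5 CPM in C57BI/6, and at 1.12 to 2.28 and 2.31 to 5.98 CPM in NGS. Cd3e, Cd3g, Ncr1, Klrb1c, Klre1 and Gzma had no count in either NGS group. The 6 neutrophil markers summed to 48.2 to 229 CPM in NGS vehicle and 76 to 174 CPM in NGS ACSS2i. In C57BI/6 their sums were 141 to 182 and 121 to 170 CPM. The median log2 fold change of the 5 neutrophil markers tested was -1.10 in NGS, where Csf3r was called lower, and 0.07 in C57BI/6. No B cell or endothelial marker passed with treatment in either host. The 7 dendritic cell markers, which include the member Bst2, summed to 41.7 to 50.3 and 81.6 to 115 CPM in NGS, and to 87.2 to 119 and 127 to 162 CPM in C57BI/6. Bst2 alone was at 28.3 to 34.3 and 61.2 to 92.6 CPM in NGS, and at 39.6 to 56.5 and 63.5 to 87.3 CPM in C57BI/6. It was the only dendritic marker called with treatment in NGS, so these sums largely repeat the level of a member there. The 6 fibroblast markers summed to 7553 to 8274 CPM in NGS vehicle and 5914 to 6700 CPM in NGS ACSS2i, and to 5462 to 7097 and 5785 to 7231 CPM in C57BI/6. Of these, Dcn, which encodes the matrix proteoglycan decorin, fell in NGS (log2 -1.21 ± 0.22, adjusted p = 0.0148). The part of leukocyte or fibroblast content in the changes of the members was not tested.

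Keratin and muscle RNA also varied between libraries. Without the NGS libraries richest in keratin genes (replicate 1 of each group), 31 members were called in NGS and 11 in C57BI/6. Without the C57BI/6 libraries richest in muscle genes (vehicle 1, ACSS2i 1 and 3), which leaves 3 vehicle and 2 treated libraries, 1 member was called in C57BI/6, and 18 were called in NGS.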

How the data were processed

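RNA was taken from 14 bulk tumour libraries by 3′ end sequencing (QuantSeq), per the labels' protocols. The authors deposited raw whole-number counts per Ensembl gene; RSEM 1.2.3, DESeq2 and build mm10 are named in the submitters' processing notes, while the aligner, the annotation and the counting strand are not given in the sources used here. Symbols were matched for 51596 of 51789 genes, and 193 genes without one were kept. Genes were filtered with filterByExpr of edgeR 4.0.16 (R 4.3.3), scaled by TMM and fitted in 1 quasi-likelihood model of the 4 groups (common biological coefficient of variation 0.236). The 2 treatment effects, their difference and the host difference in vehicle were tested two-sided, with Benjamini-Hochberg adjustment over 17294 genes and a threshold of 0.05; the comparisons share control libraries. Intervals are 95% normal approximations from the standard error and can be narrower than the test implies. For the interaction of Ifit1bl2 the interval was wholly negative (-3.92 to -0.14), yet the edgeR test gave an unadjusted p of 0.0525. Only the edgeR fit was tried on simulated counts with known changes, and only for the 2 treatment effects.

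The members and lists were chosen with earlier results of these data known. Values per library are given, in each of 8 roles, for the member with the highest mean CPM, the members with the smallest p in each comparison, and any member at 0 counts in a group. Genes of the pathway lists are named when past the test or when they define a step. A gene of the signalling step is not reported here. Replicate numbers did not pair the libraries (see the closing section). Alternatives were DESeq2 1.42.0 (its size factors and its test), limma 3.58.1 voom with quality weights, no filter on low counts, only the groups compared, a replicate block, thinned C57BI/6 counts, and each library left out in turn. A further 3 were added after seeing the data: robust dispersion estimates, and leaving out muscle-rich C57BI/6 or keratin-rich NGS libraries. A count of 0 allows up to 3 counts, and this covers counting error only.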

Additional observations from a re-analysis of the deposited data

Results flagged for a closer look

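In groups of 4 libraries, a single library stood apart from the other 3 of its group in 5 of 80 cases (gap over range above Dixon's 95% critical value), and chance gives about 1 in 20. In C57BI/6 ACSS2i, Epsti1 was high in replicate 2 (71.2 CPM against 46.5 to 50.2), and Isg20 was high in the same replicate (49.6 CPM against 43.2 to 43.7). Ifi44 was high in replicate 3 (127 CPM against 86.1 to 88.8) and Mx2 was low in replicate 1 (5.48 CPM against 8.77 to 9.41). In C57BI/6 vehicle, Ifit1bl2 was high in replicate 3 (0.857 CPM against 0.782 to 0.785), a gap that corresponds to 15 counts against 13 to 14.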

How the results depend on the processing

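No member's log2 fold change reversed its call in any alternative. Members called in C57BI/6 (7) became 1 without muscle-rich libraries, 11 without keratin-rich NGS libraries, 19 with the DESeq2 test, 21 with limma voom and 15 with only the groups compared. In NGS (26) they became 6 with limma voom and 2 with only the groups compared. For the interaction (0) they became 5 with the DESeq2 test and 2 without keratin-rich libraries; fitting only the groups compared gives no interaction. With each library left out, called members ranged from 1 to 9 in C57BI/6, 12 to 32 in NGS, 0 to 3 for the interaction and 15 to 20 between hosts (19). Over all genes the counts moved too: in C57BI/6 (54) to 21 without muscle-rich libraries, 27 thinned, 330 with the DESeq2 test, 117 without keratin-rich libraries, 429 with limma voom, 112 with no filter and 266 with only the groups compared; in NGS (466) to 120 without muscle-rich libraries, 1539 with the DESeq2 test, 1073 without keratin-rich libraries, 27 with limma voom and 9 with only the groups compared; for the interaction (3) to 1, 272, 34 and 0 in the same order of the first 4, and 7 with no filter. Leave-one-out ranges were 15 to 122, 118 to 1743, 1 to 62 and, between hosts (5666), 4608 to 6715 genes. The cause of these moves was not tested. The C57BI/6 calls kept under every alternative were 0 of 7, the NGS calls 2 of 26 (Oasl2 and Ifi44) and the host calls 12 of 19.

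With the replicate block, 0 members and 9 genes were called in C57BI/6, 21 members and 254 genes in NGS, and 19 members between hosts. Libraries with the same number correlated at -0.137 to 0.155 in C57BI/6 and -0.00221 to 0.0946 in NGS, so the numbers gave no sign of pairing. The NGS depth of 2.85 M to 4.7 M counts limits genes near the limit of detection, such as the listed interferons, Ifit1bl2 and the lymphocyte markers.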
